A study of Mus musculus with 6 samples.

Results

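Major urinary protein (Mup) genes were represented by 4 probe sets, taken by name as every one of 45037 non-control probe sets whose annotated symbol holds Mup followed by a digit. They name 3 genes, Mup10 and Mup5 with 1 probe set each and Mup3 with a bright and a dim one, of 18193 genes with a symbol of their own. None of the 4 is annotated with several paralogs, and 3 passed the filter on dim signals, the exception being the dim Mup3 probe set. The rule used names only, and the family was selected on its measured signals in LIGHT Tg against WT, over all arrays and within the title sets described below. Those differences are therefore given as a description, with no p-value for a member, and nothing is read from the counts of calls printed beside them. Probe sets that the annotation used here does not list are unnamed here, so other Mup transcripts were not analysed here. Both Mup3 probe sets carry the manufacturer's suffix _x_at, for probes that can match other transcripts too, and Mup genes are near copies of one another, so the member that a signal stands for is uncertain.

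Whole liver RNA was measured on 1 array per sample in 6 mouse samples, at 4 to 8 weeks of age and after 2 weeks on the high-fat diet TD88137. There were 3 B6 wild-type samples (WT) and 3 samples labelled LIGHT Tg, which carry a transgene for LIGHT (gene Tnfsf14), a ligand of the tumour necrosis factor family. The descriptions of the LIGHT Tg samples speak of wild-type mice, and the groups here follow the titles and source names. For the LIGHT Tg mice neither labels nor protocols state the strain, transgene promoter or founder line, so genetic background and transgene cannot be told apart. WT 1 to 3 are titled 78, 30 and 31, and LIGHT Tg 1 to 3 are titled 77, 34 and 35. Each genotype thus has 1 array in the pair titled 77 and 78 and 2 among the arrays titled 30 to 35. The labels do not explain these numbers. Nothing in the labels says outright that the samples are separate animals, so each p-value reflects the spread among these 6 arrays. That spread may be partly technical, and within a genotype it includes the title set difference described below.

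The Mup family is a cluster of closely related genes on mouse chromosome 4. They encode small secreted lipocalins, proteins with a barrel fold that holds a hydrophobic ligand. Hepatocytes release them into the blood, the kidney filters them, and in urine they bind and slowly release volatile pheromones. Their liver transcription depends on growth hormone, which acts through its receptor, JAK2 and STAT5B. The male pattern of growth hormone pulses gives male mice more of them than females, and androgens and glucocorticoids also raise them. Among the 22 protein-coding Mup genes of the RefSeq annotation GRCm38.p6, Mup10 lies between Mup1 and Mup11, Mup5 between Mup19 and Mup20, and Mup3 between Mup20 and Mup21.

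The promoters of Mup10 and Mup3 are shown because the signals of Mup10 and of the bright Mup3 probe set followed different patterns (below). The dim Mup3 probe set was lower on all LIGHT Tg arrays, as Mup10 was. RefSeq promoter entries of GRCm38.p6 were found for 14 Mup genes, Mup10 and Mup3 among them. The stretches are the 250 bases before the annotated start, minus strand, at chr4:60582156-60582405 for Mup10 and chr4:62087318-62087567 for Mup3, written 5′ to 3′. Capitals mark matches on either strand to the letters ATCAAT, the core recognised by the factor Onecut1 (HNF6), and to the TATA box that places the start of transcription, searched as TATATAA.
Mup10: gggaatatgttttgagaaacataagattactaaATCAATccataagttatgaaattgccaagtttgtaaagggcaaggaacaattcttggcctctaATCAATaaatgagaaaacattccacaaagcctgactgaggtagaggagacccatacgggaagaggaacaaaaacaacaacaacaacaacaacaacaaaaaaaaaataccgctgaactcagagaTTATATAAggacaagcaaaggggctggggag
Mup3: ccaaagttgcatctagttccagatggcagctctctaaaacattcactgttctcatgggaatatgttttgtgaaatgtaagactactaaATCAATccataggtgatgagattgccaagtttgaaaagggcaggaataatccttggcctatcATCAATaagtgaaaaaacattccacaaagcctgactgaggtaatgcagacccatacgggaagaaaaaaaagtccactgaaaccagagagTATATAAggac
In a global alignment 172 of 195 aligned bases (88.2%) of the 2 stretches were identical. Over all 91 pairs of the 14 Mup promoters identity lay between 82.4% and 100% with a median of 93.4%, so that this pair was among the less alike. The median was 94.1% for Mup10 and 87.6% for Mup3 against the 13 others. The Onecut1 core occurred in all 14, with 2 matches in each, at 217 and 154 bases before the start of Mup10 and at 162 and 100 before that of Mup3. It was present in 6.72% of the 32851 promoter stretches of this length. The TATA box letters occurred in 11 of the 14, against 3.04% of all stretches. As written, they began 30 bases before the annotated start of Mup10 and 11 before that of Mup3. Distances to the annotated start are therefore not directly comparable between the 2. The letters TTCNNNGAA, the STAT5 palindrome, were in none of the 14 and in 7.02% of all stretches. Both strands were searched. The TATA box match of Mup10 overlapped one on the other strand, and no other matches overlapped in the 2 stretches printed. The 14 sequences are copies and so not independent. Onecut1 was searched for with its signals known.

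The arrays were alike in overall signal, with medians of 175.1 to 183.1 and correlations of log2 signals between arrays of 0.875 to 0.956 across probe sets. The pair differed from the other 4 arrays in sex-linked signals. The brightest probe set of Xist, which coats the inactive X chromosome, had signals of 444.0 on WT 1, 406.6 on LIGHT Tg 1 and 7993 to 9714 on the arrays titled 30 to 35. The Y-linked gene Eif2s3y, at its brightest probe set, had 1037 on WT 1 and 1272 on LIGHT Tg 1, and no more than 2.82 on any other array. The pair thus has a male pattern and the others a female pattern, so that sex and title set cannot be told apart. Of 22519 probe sets tested, 264 were called in LIGHT Tg against WT with limma at 5% FDR. The hepatocyte markers summed to 136071 to 138527 in WT and to 135621 to 136953 in LIGHT Tg, and none of the 7 measured passed.

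Mup10 and Mup5 were lower on every LIGHT Tg array than on every WT array. Mup10 had MAS5 signals of 6981, 3946 and 3319 in WT 1 to 3 and of 440.8, 1337 and 456.4 in LIGHT Tg 1 to 3. The WT array of the pair was the highest of all and the LIGHT Tg array of the pair the lowest, and the groups did not overlap. Mean log2 signals were 12.14 ± 0.56 in WT and 9.33 ± 0.91 in LIGHT Tg (SD, n = 3 each), a log2 difference of -2.80 ± 0.476 (limma SE), or a 6.98-fold lower signal. Mup5 had 2625, 1830 and 1853 in WT and 244.4, 636.0 and 465.1 in LIGHT Tg, again with no overlap. Its mean log2 signals were 11.02 ± 0.30 and 8.70 ± 0.70, a difference of -2.31 ± 0.357 and a 4.97-fold lower signal. In whole liver, fewer cells of a type and less RNA per cell cannot be told apart.

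**Figure D1:**
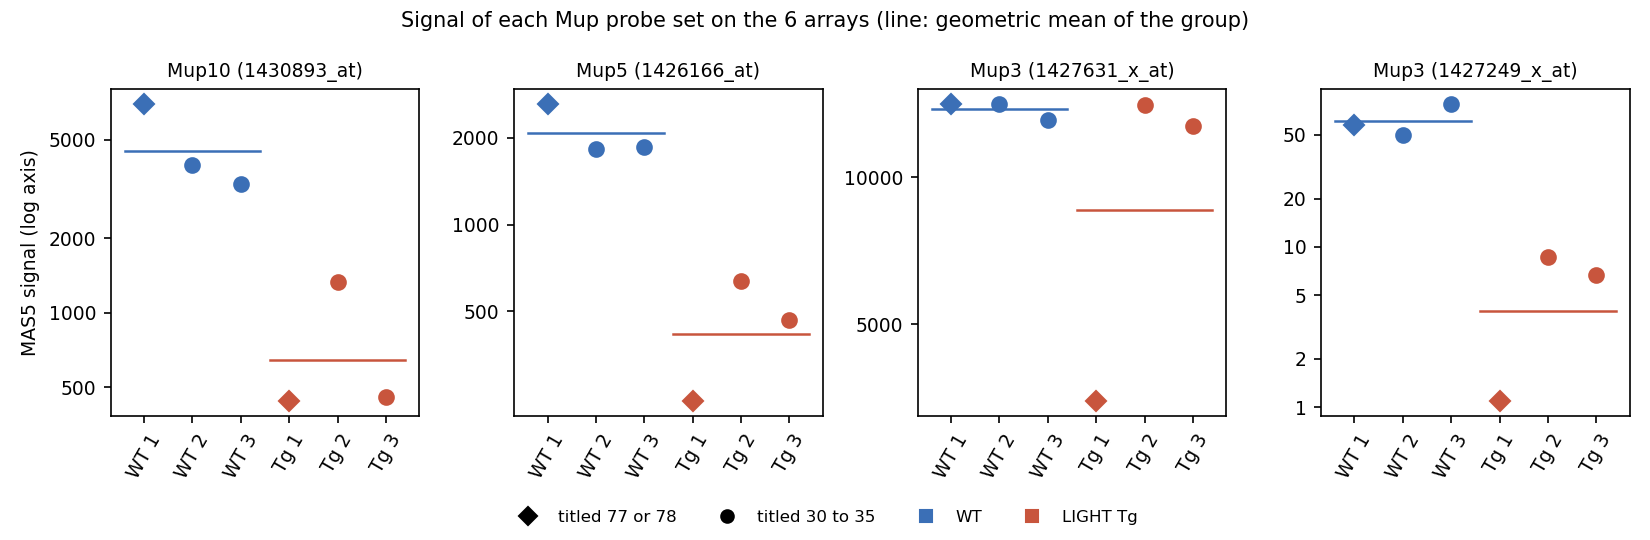
MAS5 signal (log axis, a scale of its own in each panel) of the 4 Mup probe sets on each array; points are arrays, diamonds those titled 77 or 78, and lines the geometric mean of each group. Mup10, Mup5 and the dim Mup3 probe set were lower on all LIGHT Tg arrays, while the bright Mup3 probe set was low on LIGHT Tg 1 alone (3485 against 12768 to 14142 on the other 5).

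The 2 probe sets of Mup3 differed from each other. The bright one had signals of 14142, 14107 and 13106 in WT and of 3485, 14073 and 12768 in LIGHT Tg. It was low on LIGHT Tg 1, while LIGHT Tg 2 and 3 lay in or just below the WT range. Its mean log2 signals were 13.75 ± 0.06 in WT and 13.06 ± 1.12 in LIGHT Tg, a difference of -0.69 ± 0.490, smaller than the SD of LIGHT Tg. Without LIGHT Tg 1 the difference was -0.04. The dim one had 57.8, 49.9 and 77.99 in WT and 1.09, 8.62 and 6.70 in LIGHT Tg. All of its LIGHT Tg signals lay below all of its WT signals, with mean log2 signals of 5.93 ± 0.33 and 1.99 ± 1.63 and a difference of -3.93 ± 0.840. Its signals are so low that the size of the difference depends on how small values are treated. Adding 37.5 to every signal before log2 made it -1.20.

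In all, 3 of 4 Mup probe sets had groups that did not overlap, all lower in LIGHT Tg. Among those tested it was 2 of 3, and of the 22519 probe sets tested 9.19% lay wholly lower and 8.17% wholly higher in LIGHT Tg. Of the 3 Mup probe sets tested, 2 were called lower at 5% FDR (Mup10 and Mup5), where 1.17% of all probe sets were called in either direction 0.457% lower and 0.715% higher. Leaving out any 1 array left 0 or 1 of the 2 calls. With the title-number set as a block both were called lower, where 6.47% of all probe sets were called and 3.21% lower. In the arrays titled 30 to 35 alone 1 was called lower, where 4.25% of all were called and 2.02% lower.

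The genotype difference was larger in the pair than in the arrays titled 30 to 35 at all 4 Mup probe sets. Within the pair, 1 array a genotype and so without a replicate check, the log2 differences were -3.99 for Mup10 (15.8-fold lower), -3.42 for Mup5 (10.7-fold), -2.02 for the bright Mup3 probe set (4.06-fold) and -5.73 for the dim one. In the 4 arrays titled 30 to 35 they were -2.21 ± 0.467 for Mup10 (4.63-fold lower), -1.76 ± 0.186 for Mup5 (3.39-fold), -0.02 ± 0.0855 for the bright and -3.04 ± 0.539 for the dim Mup3 probe set (limma SE, 2 arrays a genotype). Mup10, Mup5 and the dim Mup3 probe set were thus lower in LIGHT Tg in both title sets, and the bright Mup3 probe set in the pair alone. The bright one had signals of 12768 to 14142 on all arrays but LIGHT Tg 1. Whether a signal ceiling or other matching transcripts keep these alike was not tested, so its -0.02 is not read as an absence of a Mup3 difference. For all probe sets tested, median genotype differences were -0.01 (pair) and -0.02 (arrays titled 30 to 35), and median absolute differences 0.31 and 0.22.

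The difference between these differences, the one in the pair minus the one in the arrays titled 30 to 35, is made of values the family was selected on and is likewise a description. It was -2.0003 ± 0.154 for bright Mup3, -1.67 ± 0.323 for Mup5, -1.77 ± 0.814 for Mup10 and -2.69 ± 0.933 for the dim Mup3 probe set (limma SE). All 4 values were negative, and each rests on 1 array a genotype in the pair. The interaction fit in limma called 1 of the 3 Mup probe sets tested, bright Mup3, where 0.0666% of all probe sets were called, and nothing is read from that count. The call was lost without the filter, without the variance trend, without WT 2 and without WT 3, and without LIGHT Tg 3 Mup10 was called as well, at -2.55 ± 0.290.

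**Figure D2:**
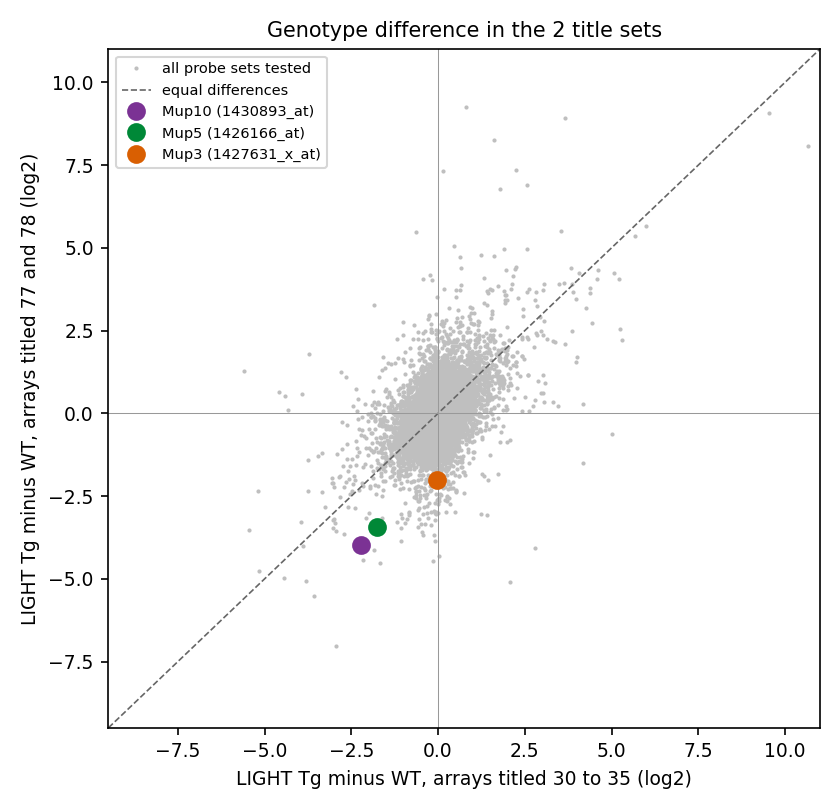
Log2 difference LIGHT Tg minus WT in the arrays titled 77 and 78 (vertical) against that in the arrays titled 30 to 35 (horizontal) for the 22519 probe sets tested (grey), with the 3 Mup probe sets tested coloured; the dashed line marks equal differences. Mup10 and Mup5 lie low on both axes, and the bright Mup3 probe set at -0.02 on the horizontal and -2.02 on the vertical axis.

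Within WT, the array of the pair had more Mup10 and Mup5 signal than the other 2, by 0.95 and 0.51 on the log2 scale, and 0.06 more bright Mup3 signal. Within LIGHT Tg the array of the pair had less of all 3, by -0.83, -1.15 and -1.94. With genotype as a term the mean difference of the pair from the others was 0.06 ± 0.499 for Mup10, -0.32 ± 0.348 for Mup5 and -0.94 ± 0.380 for bright Mup3. None of the 3 passed in limma (adjusted p = 0.939, 0.518 and 0.104) and 1 had an unadjusted p below 0.05, as did 9496 of all 22519 probe sets. Over all probe sets 27.4% were called, 11.7% higher and 15.7% lower in the pair. These means join opposite signs in the 2 genotypes for all 3, with bright Mup3 at 0.06 in WT and -1.94 in LIGHT Tg. Without WT 1 the difference was -1.15 for Mup5 and -1.94 for bright Mup3, the values within LIGHT Tg alone. Without LIGHT Tg 1 both differences turned positive, and were those within WT alone. These fits leave 1 array in the pair and reuse signals the family was selected on, so no call is given for them.

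Genes with known sex bias in mouse liver were set beside the family, with 1 probe set a gene and p-values adjusted over all probe sets tested. For these and the lists below, the genotype comparison called 0.457% of all probe sets lower and 0.715% higher. Of 14 male-biased genes tested, Nudt7, a peroxisomal coenzyme A hydrolase, fell in LIGHT Tg and 13 did not pass, and 11 had negative differences. Their median difference was -0.54 over the 6 arrays, -1.84 within the pair and -0.21 within the arrays titled 30 to 35, against -0.01 over all probe sets tested. Nudt7 fell by 1.84 ± 0.186 on the log2 scale (adjusted p = 0.00827), by -1.75 within the pair and by -1.88 within the arrays titled 30 to 35. Elovl3, a fatty acid elongase, had signals of 3323, 686.3 and 852.7 in WT and of 189.5, 206.7 and 219.4 in LIGHT Tg, a difference of -2.61 ± 0.553 (adjusted p = 0.0959, and 0.0155 with the block). Like Mup10 it was highest on WT 1 and had no overlap between the genotypes. With the block 3 of the 14 fell, Nudt7, Elovl3 and the P450 gene Cyp2d9, where 3.21% of all probe sets fell.

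In WT the array of the pair was above both others for 13 of the 14 male-biased genes, with a median excess of 2.04, and in LIGHT Tg for 4 of 14, with a median of -0.19. The share of all probe sets with that order is not given here. With genotype as a term 4 of the 14 were higher in the pair and none lower. Of all probe sets 11.7% were higher and 15.7% lower. Among the 4 were Cyp2d9 by 2.86 ± 0.310 and the fatty acid hydroxylase Cyp4a12a by 5.43 ± 0.999 (limma adjusted p = 0.00202 and 0.0101). Cyp4a12a had 8818 on WT 1 against 77.5 and 45.8, and 2465 on LIGHT Tg 1 against 66.6 and 581.2, so that both pair arrays stood above the others of their genotype. Cyp2d9 did so too, with 16470 against 1251 and 1405 in WT and 1843 against 445.9 and 417.3 in LIGHT Tg. The Mup probe sets differed from these 2 genes in that LIGHT Tg 1 had the lowest signal of the 6 arrays. Interaction terms were negative for 12 of 14, where the median over all probe sets tested was 0.0143. In limma 8 had an unadjusted p below 0.05, as did 2474 of all 22519 probe sets, but 0 passed. The terms include WT 1, the only WT array of male pattern, so they are not separate from the differences within WT.

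Of 15 female-biased genes tested, 1 rose in LIGHT Tg and 14 did not pass, with a median difference of 1.37 over the 6 arrays, 2.98 within the pair and 0.52 within the arrays titled 30 to 35. Prom1, a membrane glycoprotein, rose by 4.20 ± 0.483 (adjusted p = 0.0134). The steroid-metabolising P450 genes Cyp3a44 and Cyp3a16 had 4.02 ± 1.13 and 5.42 ± 1.67 (limma adjusted p = 0.206 and 0.254). They were among 6 that rose with the block, where 734 of all 22519 probe sets rose. With genotype as a term 5 of 15 were lower in the pair and none higher, where 15.7% of all probe sets were lower, among them Hao2, a peroxisomal hydroxyacid oxidase, by -3.26 ± 0.448 (adjusted p = 0.00415), and Cyp3a16 by -3.92 ± 1.02 (adjusted p = 0.0295). Interaction terms, which again include WT 1 and so are not separate from the differences within WT, were positive for all 15. The median over all probe sets tested was 0.0143. In limma 13 of the 15 had an unadjusted p below 0.05, against the same 2474 of 22519. The sulfotransferase gene Sult3a1, named after its values were seen, was the 1 that passed, at 6.64 ± 0.194 (adjusted p = 0.000502). It had a signal of 33.9 on WT 1, 5365 and 4771 on WT 2 and 3, and 10377, 15502 and 15598 in LIGHT Tg. Both lists hold genes whose values in these data were already known when they were drawn up.

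**Figure D3:**
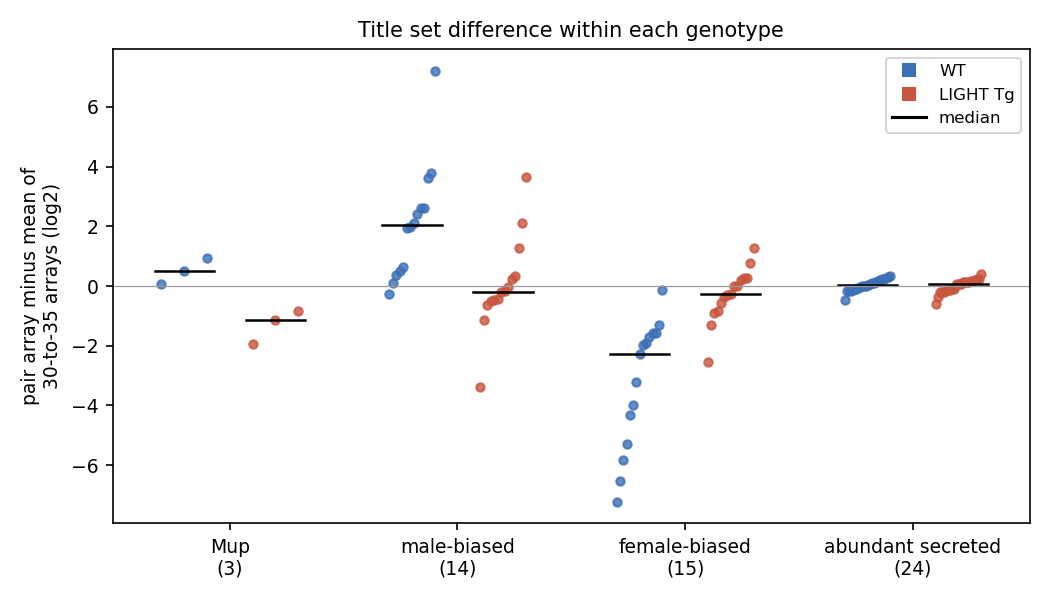
Log2 difference between the array titled 77 or 78 and the mean of the 2 arrays titled 30 to 35, within WT (blue) and within LIGHT Tg (red), for each tested probe set or gene of 4 groups; black lines are medians. Male-biased genes had a median of 2.04 in WT and -0.19 in LIGHT Tg, female-biased genes -2.28 and -0.27, and abundant secreted proteins 0.03 and 0.06, while the 3 Mup probe sets were all above 0 in WT and all below 0 in LIGHT Tg.

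Of 14 genes of the growth hormone route, the main driver of Mup transcription in liver, none was called between the genotypes in limma. Of all probe sets 1.17% were called, and nothing is read from this count. It was 1 with the 75th percentile filter, quantile normalization or equal array medians, and 3 with the mean of a gene's probe sets. The median difference was 0.17. The largest moderated statistics were those of Cish and Socs2, both STAT5-induced inhibitors of growth hormone signalling. Cish had signals of 991.0, 595.3 and 588.1 in WT and of 3025, 1632 and 2406 in LIGHT Tg, a difference of 1.70 ± 0.300 (adjusted p = 0.0538). Socs2 had 660.6, 877.3 and 1810 in WT and 3166, 9234 and 13125 in LIGHT Tg, a difference of 2.84 ± 0.572 (adjusted p = 0.0810). Neither overlapped between the genotypes, in the direction opposite to Mup10 and Mup5. Both rose with the block (limma adjusted p = 0.00268 and 0.00374), as did 3 of the 14 and 734 of all 22519 probe sets. In the comparison of the title sets 4 of 14 were called, near the 27.4% of all probe sets, with 2 higher and 2 lower in the pair, among them Jak2, the kinase of the receptor, by 0.64 ± 0.134, and Socs2 by -1.36 ± 0.325 (adjusted p = 0.0147 and 0.0224). The receptor Ghr and Stat5b had differences of 0.33 ± 0.0985 and 0.05 ± 0.224 (adjusted p = 0.237 and 0.985). They are named outside the rule.

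Of 17 transcription regulators of sex-dependent or hepatocyte expression none was called between the genotypes in limma, and 2 rose and 3 fell with the block. Of all probe sets 1.17% were called without the block and 6.47% with it. Onecut1, whose core letters are marked in the promoters above, had signals of 223.0, 258.0 and 134.2 in WT and of 497.7, 1250 and 1847 in LIGHT Tg. All LIGHT Tg signals were above all WT signals, with a difference of 2.41 ± 0.494 (adjusted p = 0.0861, and 0.0202 with the block). Bcl6, a repressor with male-biased expression in liver, had 585.6, 778.7 and 1235 in WT and 187.3, 315.4 and 334.8 in LIGHT Tg, a difference of -1.61 ± 0.345 (adjusted p = 0.0965, and 0.00543 with the block). Between the title sets, Cux2, a regulator found in female liver, was higher in the pair by 1.13 ± 0.132 (limma adjusted p = 0.00259). As the pair has the male pattern, this is opposite to its label. The same holds for Bcl6, whose lowest signal in each genotype was on the array of the pair. Prox1, a regulator of liver development, was lower in the pair by -1.22 ± 0.155 (adjusted p = 0.00334). In all 1 was higher and 4 were lower there, 5 of 17 and again near 27.4%.

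Of 11 other lipocalin genes tested, which encode proteins of the same fold, none was called between the genotypes in limma (median difference -0.20). The acute phase gene Orm2 had the largest statistic, with 11922, 6170 and 8446 in WT and 6307, 581.6 and 2363 in LIGHT Tg, a difference of -2.05 ± 0.775 (adjusted p = 0.376). Its lowest signal was on LIGHT Tg 2, where Mup10 and Mup5 had their highest of that genotype. The complement subunit C8g had -0.32 ± 0.124 (adjusted p = 0.390). In the title set comparison 2 of 11 were called, both higher in the pair, where 11.7% of all probe sets were higher and 15.7% lower. These were Ambp, the precursor of alpha-1-microglobulin, by 0.20 ± 0.0578 and Orm3 by 1.36 ± 0.403 (adjusted p = 0.0423 and 0.0439).

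Summed signals of 24 other abundant secreted liver proteins were 457863 to 467592 in WT and 467665 to 468580 in LIGHT Tg. Whether signals this bright lie near a ceiling was not tested. None was called between the genotypes in limma, where 1.17% of all probe sets were called, and nothing is read from this count. The median genotype difference was -0.00487. The protease inhibitor Fetub had the largest at 0.58 ± 0.143 (adjusted p = 0.145) and passed with the block, while prothrombin, F2, had 0.13 ± 0.0837 (adjusted p = 0.703). Between the title sets 5 of 24 were called, below 27.4%, with 3 higher in the pair and 2 lower, among them albumin, Alb, by 0.30 ± 0.0629 and apolipoprotein B, Apob, by -0.54 ± 0.0633 (adjusted p = 0.0159 and 0.00266).

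Markers of other cell types were summed over each list. Summed Kupffer cell markers were 27348 to 31499 in WT and 19165 to 30907 in LIGHT Tg, with none of 6 called. Sinusoidal endothelial markers summed to 6860 to 8016 in WT and 10907 to 12967 in LIGHT Tg. Lyve1, a hyaluronan receptor, was the 1 of 5 that rose, where 0.715% of all probe sets rose. With the block 3 rose, where 734 of all 22519 did. Stellate markers summed to 10870 to 15719 and 11701 to 12720. B and T cell markers were low in both groups, at 491.0 to 625.8 against 436.8 to 611.6 and at 716.3 to 769.3 against 666.2 to 829.1. Bile duct markers ranged from 732.6 to 6224 in WT and from 413.7 to 3943 in LIGHT Tg, where Epcam was brightest on the pair. Pancreatic acinar markers summed to 1828 to 1931 in WT and 1111 to 1394 in LIGHT Tg, with Cpa1 at 8 to 17.1 on all arrays. The part of the endothelial and acinar markers in the Mup differences was not tested.

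The profile of each tested Mup probe set over the 6 arrays was compared with that of every other tested probe set of 1 gene, as the root mean square distance between log2 signals centred on their own mean. Mup10 and Mup5 were 0.447 apart, close to the nearest other genes, and bright Mup3 was 1.23 from Mup10 and 0.874 from Mup5. Closest to Mup10 were Enpp3, an ectonucleotidase (0.443), Paqr7, a progestin receptor (0.466), and Gas1 (0.486), where the median over all genes was 1.56. Closest to Mup5 were Enpp3 (0.221), Gas1 (0.328) and Il1rap, a subunit of the interleukin-1 receptor (0.414; median 1.27). Enpp3 had signals of 1787, 1221 and 1223 in WT and of 201.6, 323.4 and 261.5 in LIGHT Tg. As for Mup5, WT 1 was its highest and LIGHT Tg 1 its lowest array.

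Closest to bright Mup3 were the kinase genes Taok3 (0.138) and Ipmk (0.142) and the sulfotransferase gene Sult2a8 (0.151; median 0.783). Sult2a8 had 10705, 11771 and 11154 in WT and 3664, 11505 and 10080 in LIGHT Tg. Ipmk had 845.2, 881.5 and 934.0 in WT and 228.4, 725.8 and 778.0 in LIGHT Tg. Each of the 3 was lowest on LIGHT Tg 1 by a wide margin. The Ipmk signals of LIGHT Tg 2 and 3 also lay below those of WT, while Taok3 and Sult2a8 overlapped between the genotypes. As these genes were picked for the likeness of their profile, their genotype differences are not tested.

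**Figure D4:**
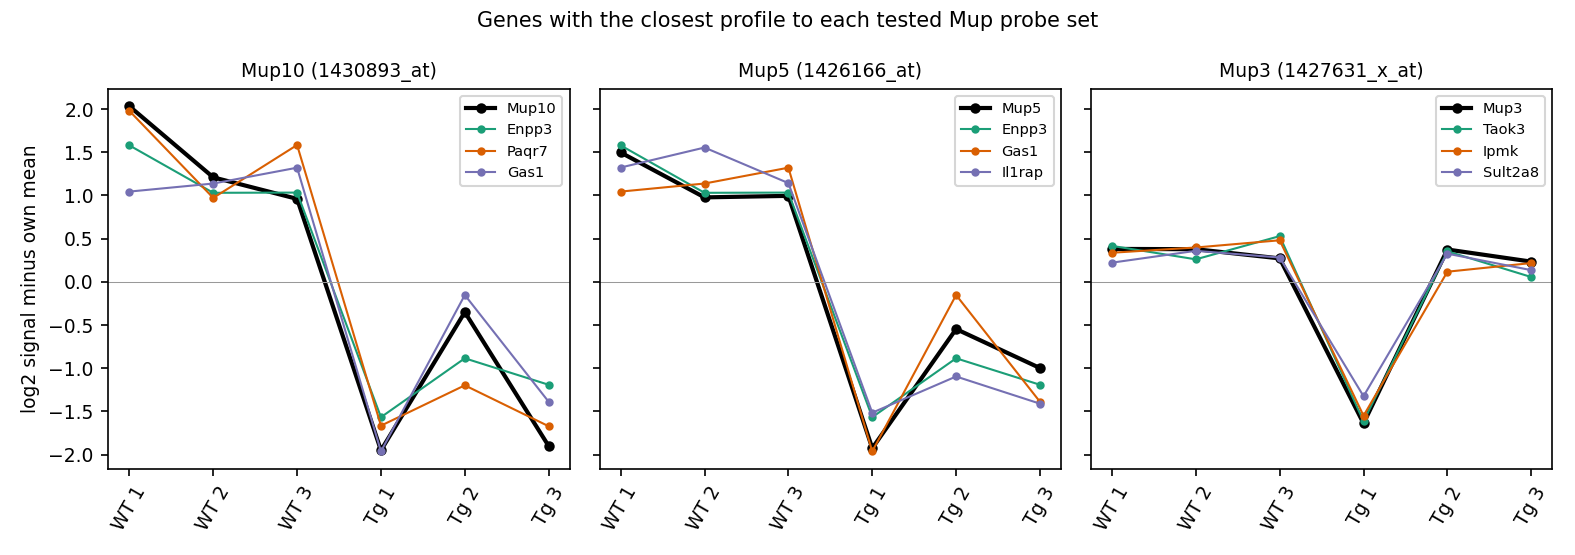
Log2 signal minus its own mean over the 6 arrays for each tested Mup probe set (black) and the 3 genes nearest to it by root mean square distance (coloured). Mup10 and Mup5 and their neighbours are high on the WT and low on the LIGHT Tg arrays, and Mup3 and its neighbours are lowest on LIGHT Tg 1.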

How the data were processed

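The authors deposited linear MAS5 intensities, 1 for each probe set and array, per the submitters' processing notes. Biotin-labelled cRNA from 6 ug total RNA was hybridised, per the labels' protocols. The MAS5 version, its scaling target and its detection calls were not used here, so no signal could be called absent. The number of arrays limits the precision.

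Of 45101 probe sets 64 controls were left out. Of the rest 34945 had 1 symbol in the array's annotation, 932 several and 9160 were unnamed here. Symbols were used as the annotation gives them. Before log2, 106 signals under 1 were raised to 1. The tests covered probe sets whose mean log2 signal reached 7.387, the median (167.4 as a signal), 22519 in all, in limma 3.58.1 (R 4.3.3; lmFit, eBayes with a variance trend), two-sided, with Benjamini-Hochberg adjustment and a threshold of 5% FDR. The fits were genotype alone, title set with genotype as a term, and both with their product. Values of the dim probe set come from a fit on all probe sets. The members and lists were chosen with earlier results of these data known. The text names all Mup probe sets, per list at most 2 genes ranked first by limma's statistic for the genotype and at most 2 for the title set, and 3 nearest genes for each tested Mup probe set. Interaction counts of the lists were added after seeing the data.

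Alternatives tried were quantile normalization, equal array medians, 37.5 added before log2, dropping the filter or raising it to the 75th percentile, eBayes robust or without trend, the title-number block, the arrays titled 30 to 35 alone, no genotype term, the mean of a gene's probe sets, and each array left out. The steps were tested on simulated data. Replicates were numbered in listing order and pair no samples. Promoters were aligned with Biopython 1.88 and figures drawn with matplotlib 3.10.9 (Python 3.11.15).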

Additional observations from a re-analysis of the deposited data

Results flagged for a closer look

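The interaction fit in limma called the bright Mup3 probe set, whose genotype difference was -2.02 in the pair titled 77 and 78 and -0.02 in the arrays titled 30 to 35, a difference of -2.0003 ± 0.154 on the log2 scale. The family was selected on these differences and the pair has 1 array a genotype, so the value is a description and no test of it.

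Sult3a1 was called in the same fit in the opposite direction, at 6.64 ± 0.194 (adjusted p = 0.000502), with genotype differences of 8.26 in the pair and 1.62 in the others.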

How the results depend on the processing

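All Mup genotype differences kept their sign under every alternative, but that of bright Mup3 was not stable in size. From -0.69 it shrank to -0.02 ± 0.0855 in the arrays titled 30 to 35 and to -0.04 ± 0.106 without LIGHT Tg 1. Both lie within their SE, so the sign carries little there. Its SD between replicates, 0.796, includes the low LIGHT Tg 1, so this change is not counted in what follows. Of the Mup genotype differences 2 moved by more than the SD between replicates, Mup5 to -1.76 in the arrays titled 30 to 35 alone and the dim Mup3 probe set to -1.20 with the offset. The count of Mup probe sets called lower in LIGHT Tg, 2 in the fit described, was 1 without the filter, with quantile normalization and in the arrays titled 30 to 35, 0 without the variance trend (2 had an unadjusted p below 0.05 in that limma fit), and 0 to 1 with each array left out. Over all probe sets the count of 264 became 148 without the trend, 1457 with the block, 956 in the arrays titled 30 to 35, and 43 to 306 with an array left out (in WT, leaving out array 2 gave 68 and array 3 gave 63, and in LIGHT Tg array 2 gave 80 and array 3 gave 43). Called genes over the 6 lists, 2 in the fit described, were 18 with the block, 18 in the arrays titled 30 to 35, 6 with the mean of a gene's probe sets, and 0 to 9 with an array left out.

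Between the title sets, the Mup count stayed at 0 in every fit that kept both arrays of the pair. Without WT 1 or LIGHT Tg 1 the pair has 1 array, and no Mup count is given. When an array was left out, the Mup10 difference lay between -0.83 and 0.95. That of Mup5 lay between -1.15 and 0.51, and that of bright Mup3 between -1.94 and 0.0567. The count over all probe sets, 6163, was 3465 with the stricter filter, which tests fewer probe sets, 3523 without the genotype term, and 2698 to 4632 with an array left out. The 24 list genes became 14 without the trend, 9 without the genotype term, and 10 to 31 with an array left out. The interaction of bright Mup3 was -2.0003 in all fits on the same log2 values and lost its call without the filter or trend, which gave a Mup count of 0 (3 and 2 had an unadjusted p below 0.05 in limma). With an array left out the count was 0 to 2, bright Mup3 lay between -2.07 and -1.93 and Mup10 between -2.55 and -0.998. Without WT 1 or LIGHT Tg 1 the interaction could not be fitted, as the pair then has 1 genotype. Causes of these changes were not tested. In fits with an array left out, a lone array is assumed to vary like the others.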
